A study of Saccharomyces cerevisiae with 6 samples.

Results

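The Set1 complex and the Bre1-Lge1 ubiquitin ligase are encoded by 10 genes, which were chosen by name (*SET1*, *BRE2*, *SPP1*, *SWD1*, *SWD2*, *SWD3*, *SDC1*, *SHG1*, *BRE1* and *LGE1*). All 10 had a row among the 5297 genes listed. mRNA was sequenced from 3 *SPO11* cultures, which form meiotic DNA breaks, and 3 *spo11-YF* cultures, which do not form them because the active-site tyrosine of Spo11 was changed to phenylalanine. Both are diploids of the SK1 background, each a single strain, and were harvested 4 h after transfer to sporulation medium. They share deletions of *NDT80* (*ndt80Δ::TRP1*), which holds cells in meiotic prophase, and of the phosphatase gene *PPH3* (*pph3Δ::LEU2*), and both carry *ho::LYS2* and *lys2*. The mutated *spo11* gene also carries an HA tag and a *URA3* marker. The genotypes listed also differ in *LEU2* and *TRP1* markers, and the paper states that the *SPO11* strain has more copies of *LEU2*. What is described here is the level of each mRNA as 1 mean over all 6 libraries of both strains. The strains are therefore not told apart, and no value has a replicate error. In bulk RNA, fewer cells expressing a gene and less of its mRNA per cell cannot be told apart.

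Set1 is the methyltransferase that places methyl groups on lysine 4 of histone H3 in budding yeast. It works within a complex, also known as COMPASS, whose other subunits hold it together, set how far the lysine is methylated, and bind chromatin. Bre1 is a RING-type ubiquitin ligase that attaches ubiquitin to histone H2B together with the conjugating enzyme Rad6, and Lge1 is its partner. Ubiquitinated H2B promotes methylation by Set1. In meiosis, methylated H3 marks the promoter regions where Spo11 cuts, and the subunit Spp1 links such regions to the chromosome axis through the axis protein Mer2.

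Per unit of coding length, the genes of the Set1 complex were near or below the median of the listed genes, whereas *LGE1* stood far above all other members. By count *LGE1* was also highest, though less far above, and *SET1* was at 2.64 times the median. The values are the authors' mean normalized counts. Levels of different genes were set side by side after division by the coding length in kilobases (kb), and also by count where this is stated. Over the 5276 genes with a coding length, the median level was 165 per kb, with quartiles at 89.0 and 339 per kb. The 10 members had a median of 143.6 per kb, which is 0.870 times the median of all genes, and 3 of them were above and 7 below that median. Of the members, 6 lay between the quartiles of all genes, 3 below the lower quartile (*SHG1*, *SWD1* and *SWD2*) and 1 above the upper quartile (*LGE1*). Together the members took 0.0948% of all mean normalized counts, and *LGE1* alone held 36.5% of that sum.

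**Figure D1:**
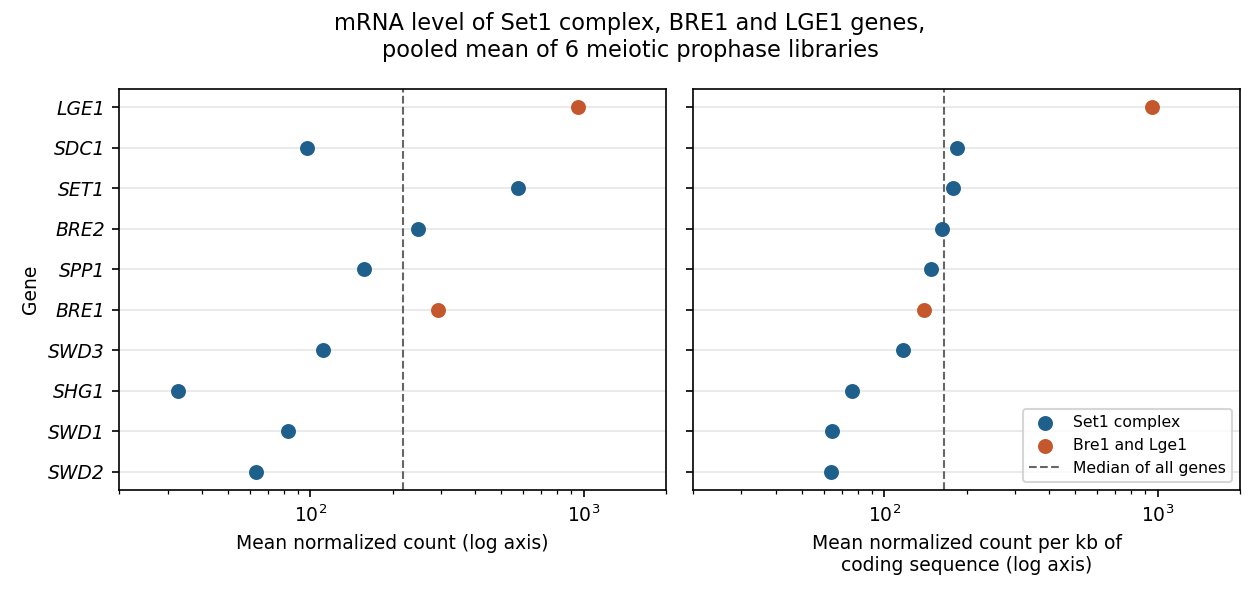
Each point is the authors' mean over all 6 libraries for 1 gene, as a mean normalized count (left) and per kb of coding sequence (right), both on log axes, with the median of all genes as a dashed line. *LGE1* is highest on both scales, and the other 9 genes spread less per kb, from 63.9 for *SWD2* to 183.8 for *SDC1*, than before length scaling.

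*SET1* (YHR119W, SK1_08G01640), which encodes the catalytic subunit, had a mean normalized count of 577. This was the second highest of the 10 members before length scaling. With 3243 bases it also has the longest coding sequence of them, and its level was 178.0 per kb, at percentile 52.8 of all genes. Per kb, *SET1* mRNA was thus at the level of a typical gene, 1.08 times the median, whereas its mean normalized count was 2.64 times the median, at percentile 79.9.

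*BRE2* and *SDC1* encode subunits that bind each other and are needed for full methylation. The authors' mean for *BRE2* (YLR015W, SK1_12G00740) was 247 normalized counts, or 162.8 per kb. *SDC1* (YDR469W, SK1_04G06480) has a coding sequence of only 528 bases and had 97.0 normalized counts, or 183.8 per kb. Thus *SDC1* was below *BRE2* by count but 1.13 times as high per kb. *SET1*, *BRE2* and *SDC1* lay within 1.13-fold of each other per kb, at percentiles 49.4 to 54.1. Whether steps of this size exceed the spread between cultures could not be determined from a pooled mean.

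*SPP1* (YPL138C, SK1_16G01400) encodes the subunit with a PHD finger, a fold that binds methylated lysine 4 of H3. Its mean normalized count was 156.9, or 147.8 per kb, at percentile 45.0 of all genes. *SET1* was 1.20 times as high as *SPP1* per kb. The gene of its meiotic partner Mer2 (*REC107*) had 603.5 per kb, 4.08 times the level of *SPP1*. *REC114* and *MEI4*, whose products act with Mer2 in break formation, had 2494 and 401 per kb. All 3 genes of this meiosis-specific group were above every subunit of the Set1 complex per kb. By mean normalized count *REC114* (3210) was above *SET1* (577), whereas *REC107* (570) and *MEI4* (493) were below it.

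Per kb, the genes of the WD40-repeat subunits were lower than *SET1*, *BRE2*, *SDC1* and *SPP1*. By mean normalized count *SWD3* was above *SDC1* (97.0), whereas *SWD1* and *SWD2* were below it. Swd1 and Swd3 belong to the core of the complex, and Swd2 is an essential protein that it shares with the mRNA 3′ end processing machinery. *SWD3* (YBR175W, SK1_02G02710) had a mean normalized count of 110.8 and a level of 116.9 per kb. For *SWD1* (YAR003W, SK1_01G00680) these values were 82.6 and 64.5 per kb, and for *SWD2* (YKL018W, SK1_11G01920) 63.2 and 63.9 per kb. *SWD3* was 1.81 times as high as *SWD1* per kb, while *SWD1* and *SWD2* differed by a factor of only 1.01. *SWD2* was the lowest of all 10 members per kb, at percentile 14.9 of all genes, and *SET1* was 2.79 times as high.

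*SHG1* (YBR258C, SK1_02G03500) encodes a small subunit whose loss has mild effects on methylation. It had the lowest mean normalized count of the members, 32.7, and also the shortest coding sequence, 429 bases. Per kb its level was 76.3, at percentile 20.2 of all genes and above *SWD1* and *SWD2*.

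Across the 8 subunits of the Set1 complex, the mean normalized counts spanned 17.6-fold and the levels per kb 2.88-fold. Their coding lengths spanned 7.56-fold. The order per kb was *SDC1*, *SET1*, *BRE2*, *SPP1*, *SWD3*, *SHG1*, *SWD1* and *SWD2*. The widest step between neighbours in this order was that from *SWD3* to *SHG1*, 1.53-fold. The steps from *SDC1* down to *SPP1* were each at most 1.10-fold. The range from *SWD2* to *SDC1* is not narrow in relation to the transcriptome, as it held 39.3% of all genes.

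**Figure D2:**
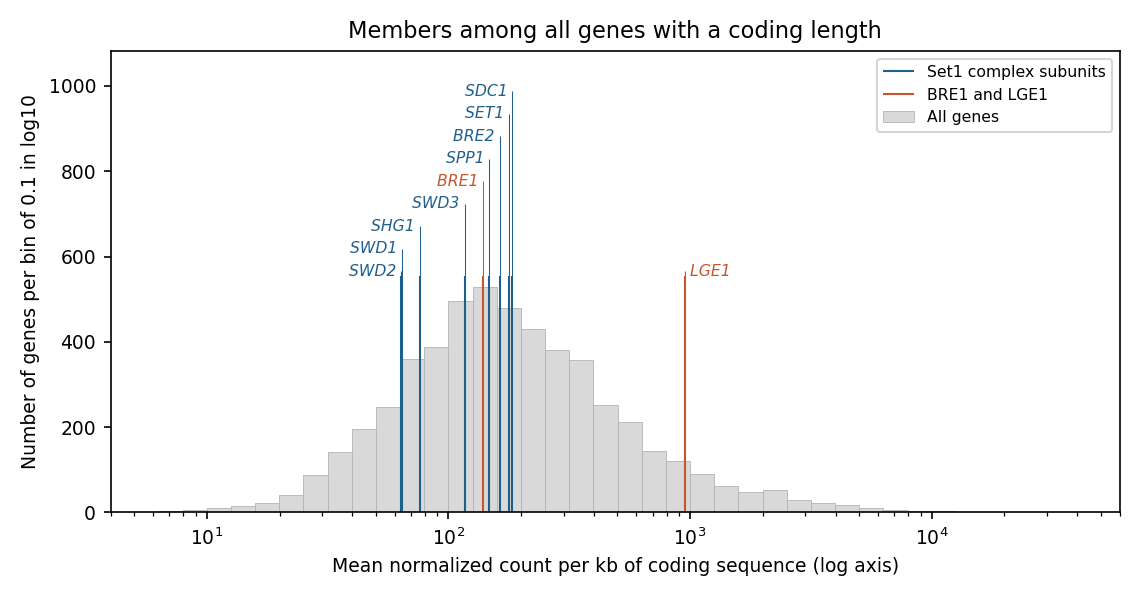
Grey bars count all genes in bins of 0.1 on the log10 scale of the level per kb (log axis), and each vertical line marks 1 member. The 8 subunits of the Set1 complex and *BRE1* lie around or below the median of 165 per kb, and *LGE1* at 956 per kb lies in the upper part of the distribution, with 377 genes above it.

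The mRNAs of the ubiquitin ligase and of its partner were present at unequal levels. *BRE1* (YDL074C, SK1_04G01630) had a mean normalized count of 293 over a coding sequence of 2103 bases. Its level of 139.5 per kb, at percentile 42.5 of all genes, lay within the range of the Set1 complex. *LGE1* (YPL055C, SK1_16G02150) had a mean normalized count of 955 over 999 bases, and its level of 956 per kb lay at percentile 92.8. *LGE1* was 6.86 times as high as *BRE1* per kb and 3.26 times as high by count, so that it ranked above its partner on either scale. Per kb it was 5.20 times as high as *SDC1*, the next member in the order, and 15.0 times as high as *SWD2*. By count the next member was *SET1*, and *LGE1* was 1.66 times as high. Without *LGE1* the remaining 9 members spanned 2.88-fold per kb, with a median of 0.845 times that of all genes. For comparison, *RAD6*, which encodes the conjugating enzyme that Bre1 works with, had 210.8 per kb, 1.51 times the level of *BRE1*, but 0.373 times its mean normalized count. The level of *LGE1* was close to that of *SPO11* itself, the gene of the break-forming enzyme, which had 905.7 per kb over wild-type and tagged mutant cultures together.

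The other genes of the pathway were taken from lists of known function. Of 40 listed genes, 39 had a row, and *SUS1*, a subunit of the module that removes ubiquitin from H2B, is not analysed here. Of the 39 genes, 23 were above every subunit of the Set1 complex per kb, 10 lay within its range and 6 were below it. By mean normalized count, most of them lay instead within the range from *SHG1* (32.7) to *SET1* (577). On that scale only *UBP10*, *GIS1*, *SNT1*, *HOS4*, *HST1*, *PTA1*, *REC114* and *HTB1* were above *SET1*, and only *SGF11* (10.7) was below *SHG1*. Per kb, *LGE1* was exceeded by 5 of the 39 genes, namely *REC114*, *CPR1*, *HTB1*, *HTB2* and *HHT2*. By mean normalized count *LGE1* (955) was exceeded by *REC114* (3210), *HTB1* (1206), *GIS1* (1203) and *UBP10* (1187). The median of the 39 genes was 1.29 times that of all genes, against 0.870 times for the members. The lists include meiotic and histone genes, and the difference between these medians was not tested.

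The Paf1 complex travels with RNA polymerase II and is needed for H2B ubiquitination and for the recruitment of Set1. Its 5 genes ranged from 45.2 per kb for *CTR9* to 408 per kb for *LEO1*, a span of 9.02-fold, and *RTF1* had 149.0 per kb. The genes for removal of ubiquitin from H2B ranged from 35.7 per kb for *SGF11* and 44.9 per kb for *UBP8*, the protease of the SAGA complex, to 499 per kb for *UBP10*. *SGF11* had a mean of only 10.7 normalized counts. Per kb, *BRE1* was above *UBP8* and below *UBP10*.

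*SET2* and *DOT1*, which encode the methyltransferases for lysines 36 and 79 of H3, had 45.7 and 65.1 per kb, and *SET1* was 3.90 and 2.73 times as high. *JHD2*, the gene of the demethylase that reverses Set1 methylation, had 39.7 per kb, and *SET1* was 4.49 times as high. The other demethylase genes had 119.1 per kb (*JHD1*), 172.8 per kb (*RPH1*) and 448 per kb (*GIS1*). Per kb, *SET1* was thus the highest of the 3 methyltransferase genes, and was also above the gene of its opposing demethylase.

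Proteins that bind methylated lysine 4 include the ING-type PHD finger proteins Yng1, Yng2 and Pho23, and the Set3 histone deacetylase complex. Per kb, *YNG1* had 185.7, *YNG2* 421.8 and *PHO23* 443, so that all 3 were above *SPP1*. They were also above the highest subunit of the Set1 complex, *SDC1* at 183.8 per kb, though *YNG1* only barely. By mean normalized count, *YNG1* (122.5) was below *SPP1* (156.9), and all 3 were below *SET1* (577). The 7 genes of the Set3 complex ranged from 78.3 per kb for *HOS2* to 1135 per kb for *CPR1*, a cyclophilin with many other roles. *SET3* had 120.1 per kb and *HST1*, a sirtuin deacetylase gene, 538 per kb. In the 3′ end processing complex that shares Swd2, the 6 other genes had a median of 160.2 per kb and ranged from 59.5 per kb for *SYC1* to 547 per kb for *GLC7*, a phosphatase gene. *SWD2* was below 5 of these 6 genes and above *SYC1*.

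Per kb, the mRNAs of the substrates were above those of all members other than *LGE1*, and *HTB1*, *HTB2* and *HHT2* were above *LGE1* too. By mean normalized count only *HTB1* (1206) was above *LGE1* (955). On that scale *HTB2* (441), *HHT1* (346) and *HHT2* (422) were below *SET1* (577). The H2B genes *HTB1* and *HTB2* had 3045 and 1115 per kb, which is 21.8 and 7.99 times the level of *BRE1*. The H3 genes *HHT1* and *HHT2* had 841 and 1026 per kb. The 2 genes of each pair encode the same or nearly the same protein. How reads were shared between copies was not examined, so the values of single copies are uncertain.

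**Figure D3:**
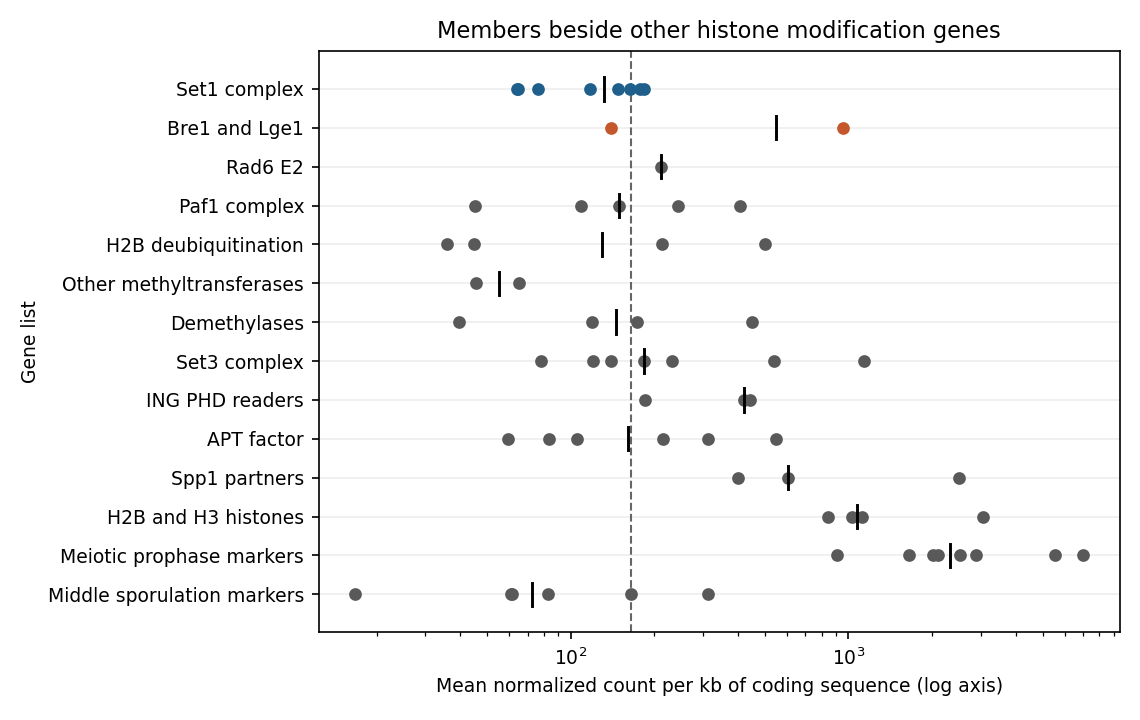
Each point is 1 gene by its level per kb of coding sequence (log axis), grouped by list, with a black bar at the median of each list and a dashed line at the median of all genes. Per kb, the Set1 complex spans 2.88-fold, the ING PHD readers 2.39-fold, the Paf1 complex 9.02-fold and the Set3 complex, with *CPR1* highest, 14.5-fold. By mean normalized count the Set1 complex spans 17.6-fold, from 32.7 to 577. The Paf1 complex then ranges from 129 to 569 and the Set3 complex from 106 to 851, so the per kb contrast does not hold by count.

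The stage of the cultures was described with 8 genes of meiotic prophase and 6 genes of middle sporulation, the latter needing Ndt80. Both strains lack *NDT80*, so the middle genes cannot by themselves show the stage. The prophase genes had a median of 2313 per kb, 14.0 times that of all genes, and all 8 were above the median of all genes. The middle genes had a median of 72.3 per kb. On that scale *SPS2* was the 1 gene of the 6 above the median of all genes. *SPR3* lay at 0.997 times that median per kb, but at 1.16 times the median by mean normalized count. The lowest mean in the whole table was 8.21 normalized counts, and genes with lower means are not analysed here, so that percentiles refer to the listed genes. Coding lengths are those of S288C, and untranslated ends, which lengthen short mRNAs by a larger share, are not included.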

How the data were processed

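The libraries were made by the authors from poly(A) RNA of 3 *SPO11* and 3 *spo11-YF* cultures. According to their methods and processing notes, reads were trimmed with Trim Galore and mapped to the SK1 genome by the nf-core RNA-Seq pipeline with STAR and Salmon. The authors adjusted the gene counts from Salmon for batches with ComBat-Seq and passed them to DESeq2. Versions are not given in the sources used here. The deposited signal used here is the authors' mean normalized count of each gene, which pools all 6 libraries. It has no SD and no n, the depth of single libraries is unknown, and a batch adjustment may change both levels and spread. The other 5 value columns hold the authors' own comparison of the strains (log2 fold change, standard error, Wald statistic, p-value and adjusted p-value), and they were not used.

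Each mean was divided by the coding length in kilobases of 1000 bases. Lengths came from the S288C annotation (assembly R64), matched by systematic name for 5276 of 5297 rows, and stand in for SK1 lengths. As the builds differ, no coordinates or sequences are given. Percentiles count the genes below a value. No test was run: the count test planned for values per library could not be applied to a pooled mean. Described genes are the 10 members and lists set by known roles. Members and lists were chosen with earlier results of these data known. Alternatives were no length scaling, 200 bases added to each length, a minimum mean of 10, and the Set1 complex alone. The calculation was tested on simulated data. Python 3.11.15, numpy 2.4.6, pandas 2.3.3 and matplotlib 3.10.9 were used.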

Additional observations from a re-analysis of the deposited data

How the results depend on the processing

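No paired analysis was possible because the means pool all libraries and the comparison columns were not used. For the same reason the fits with other normalizations or filters and the leaving out of each replicate were not run. Without length scaling, the ratio of the highest to the lowest member was 29.2 in place of 15.0, and *SHG1* was lowest in place of *SWD2*, since *SHG1* has the shortest coding sequence. In that setting *BRE1* (1.34 times the median of all genes) and *BRE2* (1.13) lay above that median and *SDC1* (0.444) below it, the opposite side from the level per kb. *SET1* moved from 1.08 to 2.64 times the median and *SHG1* from 0.463 to 0.150 times. With 200 bases added to each coding length, *BRE2* (1.02) and *SDC1* (0.949) also changed sides, *SET1* in place of *SDC1* came next to *LGE1*, and *SHG1* was again lowest. The members' median stayed between 0.613 and 0.896 times the median of all genes under all 4 alternatives, and *LGE1* was the highest member in the 3 that kept it, at 4.37 to 5.78 times the median. For *BRE1*, *BRE2* and *SDC1* the side of the median therefore depends on the length used. *SET1* stayed above the median and *SPP1*, *SWD1*, *SWD2*, *SWD3* and *SHG1* stayed below it in every setting. The order among the members other than *LGE1* also depends on the length used. Pooled means give no depth for single libraries, so the precision of each level is unknown.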

Other observations

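The surroundings of the 10 genes were taken from the order of protein-coding genes in the S288C annotation. For 9 of the 10 members the upstream neighbour lies on the opposite strand and is transcribed away from the member, against 51.5% of all protein-coding genes with an upstream neighbour. *SPP1* is the exception, as *GIP3* precedes it on the same strand. No member overlaps a protein-coding neighbour in its coding sequence, and no 2 members are neighbours of each other. Overlap of untranslated ends was not examined.

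Of the 20 neighbours, 19 had a row, of which 8 were above and 11 below their member per kb. *LEE1*, which shares the upstream region of *LGE1*, had 273 per kb, so that the high level of *LGE1* was not matched on the other side of that region. *UMP1*, a proteasome assembly gene that diverges from *SWD3*, had 4223 per kb, against 116.9 per kb for *SWD3*. *RFA1*, which encodes a subunit of the single-strand DNA binding factor RPA and converges with *SWD1*, had 833 per kb, against 64.5 per kb for *SWD1*. Why *LGE1* mRNA was several times more abundant than that of its partner *BRE1* was not tested.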
